A study of Mus musculus with 8 samples.

Results

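The miR-181 family of microRNAs (miRNAs) was followed in the small RNA of mouse testis. Its members were taken by name, as every entry of the miRNA class called miR-181a, b, c or d, on either arm of the precursor. The rule found 8 entries among 20558 small RNAs, of which 730 were miRNA entries. These were miR-181a-5p, miR-181b-5p, miR-181c-5p and miR-181d-5p from the 5p arm, and miR-181a-1-3p, miR-181a-2-3p, miR-181b-1-3p and miR-181c-3p from the 3p arm. The 3p arms of Mir181b-2 and Mir181d were not analysed here.

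Small RNA of 8 adult C57Bl/6 males was compared, 4 on a standard diet (SD) and 4 on a Western-like diet (WD) rich in sugar and fat. The question was which small RNAs of the testis differ with the father's diet. The SD mice were named M1N, M2N, TN1 and TN2, and the WD mice M1W, M2W, M3W and M5W. The labels give 4 weeks of age as the start of the diet and 4 months as the age at mating, whereas the study's methods place the start of the diet earlier, and the labels describe high-lipid feeding for all 8 mice, controls included. All were whole testes of wild-type animals, so fewer cells of a type and less RNA per cell cannot be told apart. Nothing in the labels says whether the mice came from separate cages or litters.

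A miRNA precursor is a hairpin from which a duplex of about the length of the mature miRNA is cut, and one strand of the duplex, here usually the 5p arm, is kept in Argonaute while the other is mostly lost. The retained strand finds its targets mainly through its seed, the bases near its 5′ end, and lowers the level or the translation of the mRNAs it pairs with. The miR-181 family is best known from lymphocytes, where miR-181a raises the sensitivity of the T cell receptor in developing thymocytes by lowering several phosphatases. It is also found in brain, muscle and vessels.

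The mature sequences are shown because the counts depend on telling them apart, and because they show which members can share targets. They were taken from RefSeq (GRCm38.p6), written 5′ to 3′, with the seed, bases 2 to 8, in capitals. First come the 5p members.
miR-181a-5p: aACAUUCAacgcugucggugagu
miR-181b-5p: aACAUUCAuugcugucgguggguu
miR-181c-5p: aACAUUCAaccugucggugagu
miR-181d-5p: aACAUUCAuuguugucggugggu
The 3p members, from the opposite side of the hairpins, follow.
miR-181a-1-3p: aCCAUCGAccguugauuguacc
miR-181a-2-3p: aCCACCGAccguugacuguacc
miR-181c-3p: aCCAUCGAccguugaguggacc
miR-181b-1-3p: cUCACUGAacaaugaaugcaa

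The 4 members of the 5p arm shared the seed ACAUUCA, which 4 of 1679 mouse mature miRNAs held (0.238%), with 0 outside the family. The 3p arms carried other seeds. miR-181a-1-3p and miR-181c-3p shared CCAUCGA (0.119% of mature miRNAs), and miR-181a-2-3p differed from both within the seed. The remaining differences were few. Counted from 1 at the 5′ end, miR-181b-5p and miR-181d-5p differed by C12U over 23 bases. miR-181a-5p and miR-181b-5p differed by A9U, C10U and A21G, and miR-181c-5p lacked base 11 of miR-181a-5p. On the 3p side, miR-181a-1-3p and miR-181a-2-3p differed by U5C and U16C, and miR-181a-1-3p and miR-181c-3p by U16G and U19G. The authors' alignment allowed 2 mismatches per read, and how a read that matches several miRNAs was counted is not given in the sources used here. Counts of the members that lie within 2 substitutions of each other, miR-181b-5p with miR-181d-5p and miR-181a-1-3p with miR-181a-2-3p and miR-181c-3p, are uncertain to that extent. A read too short to reach A21G shows only A9U and C10U, so counts of miR-181a-5p and miR-181b-5p can be uncertain too.

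The family comes from 6 precursors in 3 pairs. In NCBIM37, the assembly also named mm9, Mir181a-1 lies at chr1:139863032-139863118 and Mir181b-1 at chr1:139863216-139863295, both on the plus strand and in no annotated gene. Mir181a-2 at chr2:38708255-38708330 and Mir181b-2 at chr2:38709350-38709438, on the plus strand, lie opposite to Nr6a1, within its introns and in none of its exons. Nr6a1 encodes a nuclear receptor known as germ cell nuclear factor. Mir181c at chr8:86702762-86702867 and Mir181d at chr8:86702615-86702686, on the minus strand, lie in no annotated gene, and their nearest coding gene is Nanos3, a gene of germ cell development, at 2311 and 2164 bp. miR-181a-5p and miR-181b-5p each come with the same sequence from chromosomes 1 and 2. Their 5p counts therefore sum over both loci, and only the 3p arms tell these loci apart.

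Total counts per mouse ranged from 2064562 to 3253798. The floor of 3 counts corresponded to between 0.933 and 1.39 CPM (a read count relative to library size, scaled by TMM factors), and covers counting error only. As a check for a library present under more than one name, chi-square per degree of freedom was computed for the 28 pairs of mice, and its lowest value was 2.67. The libraries of M1N and M2N stood apart from the other 6. On the first principal component of log2 CPM (47.3% of the variance) M1N lay at -73, M2N at -35.4 and the rest between 4.42 and 34.5. What the letters M and TN stand for is not given in the sources used here, and all TN mice were on SD. Results are therefore given against all 4 SD mice and against each pair of them, comparisons that share the 4 WD mice. As a check of the tissue label, the miRNAs of meiotic and postmeiotic germ cells were the most abundant of the marker lists, with a summed level of 13400 to 18200 CPM per mouse. Their leading member, miR-34c-5p, had the highest mean level of all mature miRNAs, at 8030 CPM.

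In the testis the family was, by reads, mostly miR-181a-5p. Over the 8 mice 7121 reads were counted on the members, of which 6724 (94.4%) were from the 5p arm and 397 (5.58%) from the 3p arm. miR-181a-5p alone took 71.0% of them. miR-181c-5p took 10.4% and miR-181b-5p 10.3%, and the other 5 members between 0.239% and 2.71%. The family as a whole made up 0.436% of the miRNA counts in M1N, 0.325% in M2N, 0.294% in TN1 and 0.299% in TN2. In WD mice its share was 0.283% in M1W, 0.263% in M2W, 0.262% in M3W and 0.289% in M5W. On this measure the 4 WD mice lay below the 4 SD mice, though only 0.289% in M5W and 0.294% in TN1 separated them and M1N was far above the rest. Taken singly, 4.78% of the miRNA entries tested did not overlap between the diets in their share of the class. The means were 0.338% ± 0.0663 and 0.274% ± 0.0136 (SD and WD mice, each with the standard deviation, n = 4). In CPM, which relates the family to all small RNAs, the sums overlapped, with means of 356 ± 117 in SD mice and 285 ± 34.2 in WD mice (standard deviation, n = 4).

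miR-181a-5p ranked 74 of the 576 mature miRNAs listed, with a mean of 227 CPM ± 86.6 (standard deviation over 8 mice). It stood between miR-18a-5p at 232 CPM and miR-3963 at 224 CPM. Within a mouse its rank was 54 in M1N and between 73 and 82 in the other 7. The next members came far lower. miR-181c-5p, with 33.8 CPM ± 7.63, ranked 170, and miR-181b-5p, with 32.9 CPM ± 6.47, ranked 173. Their neighbours were miR-1a-3p at 34.1 CPM and miR-1981-5p at 33.6 CPM, and miR-744-5p at 33.4 CPM and miR-324-5p at 32.5 CPM. miR-181d-5p, with 8.80 CPM ± 2.92, ranked 273, between miR-146a-5p at 8.85 CPM and miR-133a-3p at 8.79 CPM. Of the 3p arms, miR-181a-1-3p had 8.66 CPM ± 2.29 and miR-181c-3p 7.44 CPM ± 3.34. miR-181a-2-3p and miR-181b-1-3p, with 22 and 17 reads over all 8 mice, had means of 1.01 and 0.759 CPM, within the range of the floor or below it.

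The order of the members was compared mouse by mouse, with an exact sign-flip permutation test of each of the 7 steps (two-sided, smallest possible p = 0.00781, Benjamini-Hochberg adjustment over the 7). The steps were set by ordering the members on the mean level in the same mice, and the test was added after the counts were seen, so the p-values describe how regular the order was. Of the 7 steps, 3 passed. miR-181a-5p exceeded miR-181c-5p in 8 of 8 mice, by 2.69 ± 0.78 log2 units (standard deviation; exact adjusted p = 0.0182). miR-181b-5p exceeded miR-181d-5p in 8 of 8 mice, by 1.90 ± 0.74 (exact adjusted p = 0.0182), and miR-181c-3p exceeded miR-181a-2-3p in 8 of 8 (exact adjusted p = 0.0182). The size of the last step is not given, since miR-181a-2-3p was near the floor and the 0.5 CPM added before taking logs understates it. The other neighbours did not differ beyond their spread. miR-181c-5p and miR-181b-5p differed by 0.02 ± 0.60, miR-181d-5p and miR-181a-1-3p by -0.02 ± 0.82, miR-181a-1-3p and miR-181c-3p by 0.28 ± 0.42, and miR-181a-2-3p and miR-181b-1-3p, both near the floor, by 0.23 ± 1.02 (exact adjusted p from 0.191 to 0.922).

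**Figure D1:**
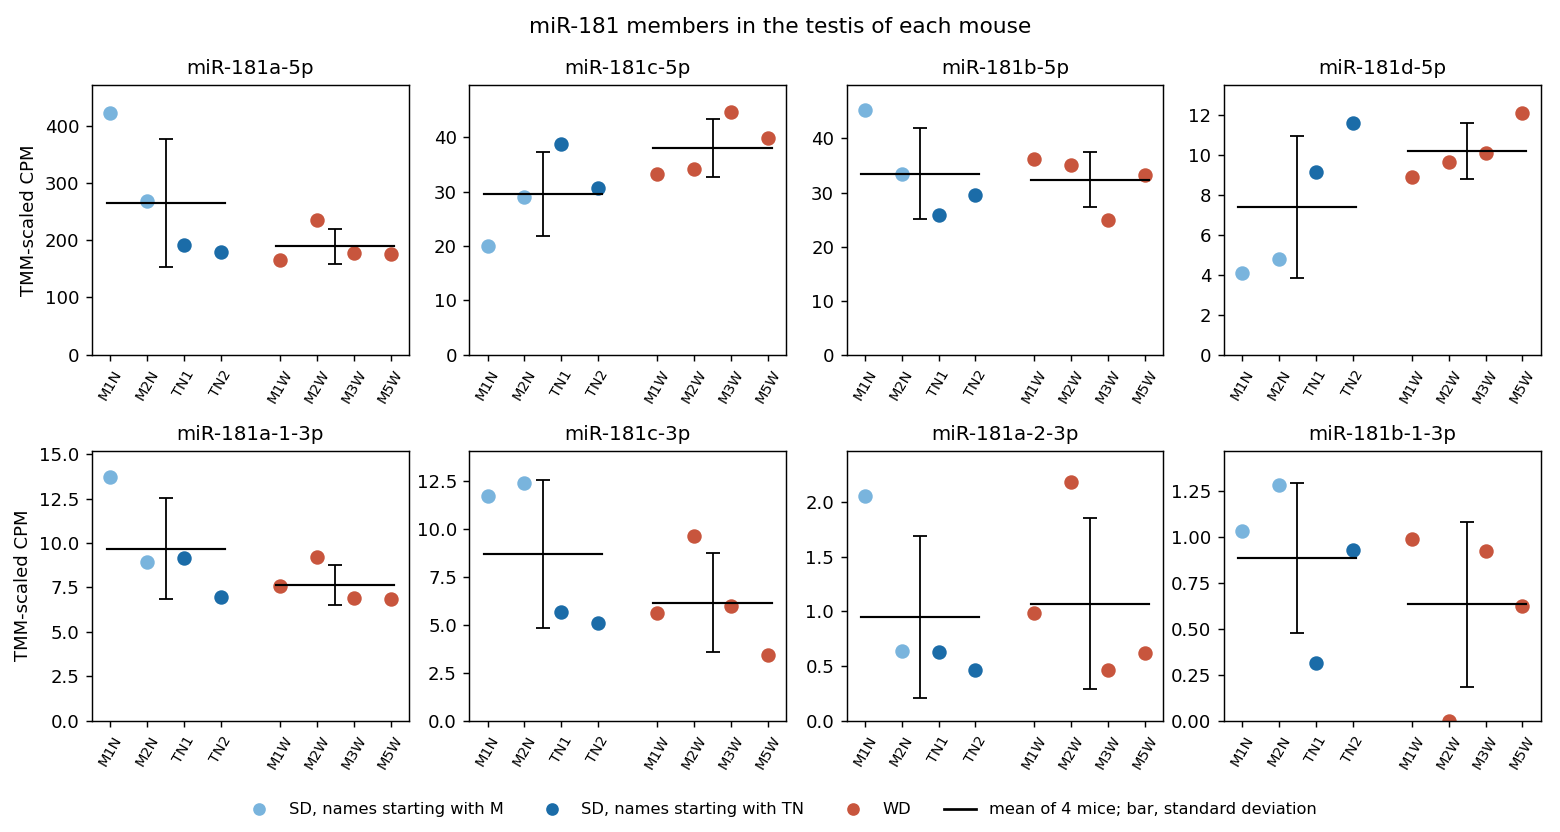
TMM-scaled CPM (vertical axis) of each of the 8 listed members in each mouse (horizontal axis), 1 panel per member, with SD mice in blue (light for names starting with M, dark for TN) and WD mice in red. Horizontal lines are means of 4 mice and bars standard deviations. M1N and M2N lie above the other 6 mice for miR-181a-5p and miR-181c-3p and below them for miR-181c-5p and miR-181d-5p, while the WD mice overlap the SD mice in all 8 panels.

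Of the 8 members, 6 passed the filter on low counts and entered the test of WD against SD. With edgeR's quasi-likelihood method, adjusted by Benjamini-Hochberg over the 16955 small RNAs tested, 0 of the 6 reached an adjusted p under 0.05 and 0 an unadjusted p as low as 0.05. DESeq2 and limma-voom also gave 0 members with an adjusted p under 0.05. Across all small RNAs tested the share called was 0%, while 2474 reached that value without adjustment. By the looser criteria that the study used for miRNAs, at least a 1.5-fold change with an unadjusted p up to 0.1, 0 of the 6 differed, against 15.1% of the miRNA entries tested. The median log2 fold change of the 6 was -0.20, and that of all miRNA entries tested 0.03. In CPM, WD and SD mice overlapped for each of the 6, while 8.37% of the miRNA entries tested did not overlap. As a share of the miRNA counts, miR-181a-5p was lower in each WD mouse than in each SD mouse. The nearest were 566 of 303572 counts in M5W and 605 of 302779 in TN1. On that measure 4.78% of the miRNA entries tested did not overlap, so the overlap of miR-181a-5p depended on the scaling.

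miR-181a-5p, the dominant member and the regulator of T cell receptor signalling, was at 423 CPM in M1N, 268 in M2N, 191 in TN1 and 179 in TN2. In WD mice it was at 166 CPM in M1W, 235 in M2W, 177 in M3W and 176 in M5W. In CPM, M1N and M2N were the highest, and TN1 and TN2 lay among the WD mice. The means were 265 ± 112 and 189 ± 31.4 CPM (SD and WD, standard deviation, n = 4). The log2 fold change was -0.49 (SE 0.24, edgeR adjusted p = 0.352; exact permutation test over mice, two-sided, p = 0.171), within the spread between mice, and was -0.18 without M1N.

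miR-181c-5p has the same seed as miR-181a-5p but comes from chromosome 8. It was at 19.9 CPM in M1N, 29.0 in M2N, 38.7 in TN1 and 30.6 in TN2, and at 33.2 in M1W, 34.2 in M2W, 44.7 in M3W and 39.8 in M5W. M1N and M2N were the lowest of the 8 mice, and TN1 and TN2 lay below or among the WD mice. The log2 fold change was 0.36 (SE 0.21, edgeR adjusted p = 0.411, exact permutation p = 0.114). Its sign was opposite to that of miR-181a-5p, but neither reached an adjusted p under 0.05 against all SD mice. Both were slightly positive against TN1 and TN2, at 0.12 (SE 0.19) for miR-181c-5p and 0.03 (SE 0.16) for miR-181a-5p.

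miR-181b-5p, processed from the same transcripts as miR-181a-5p, was at 45.2 CPM in M1N, 33.5 in M2N, 25.8 in TN1 and 29.6 in TN2. WD mice had 36.2 CPM in M1W, 35.1 in M2W, 24.9 in M3W and 33.3 in M5W. M1N was the highest and M3W the lowest, and the remaining mice of both diets were mixed. The log2 fold change was -0.05 (SE 0.21, edgeR adjusted p = 0.919; exact permutation p = 0.886), and its sign turned with the scaling, to 0.02 on column totals.

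miR-181d-5p, the partner of miR-181c-5p on chromosome 8, was at 4.11 CPM in M1N, 4.78 in M2N, 9.14 in TN1 and 11.6 in TN2, from 12, 15, 29 and 25 reads. In WD mice it was at 8.88 CPM in M1W, 9.65 in M2W, 10.1 in M3W and 12.1 in M5W. M1N and M2N again were the lowest, and TN1 and TN2 lay within the range of the WD mice. The log2 fold change was 0.50 (SE 0.31, edgeR adjusted p = 0.443; exact permutation p = 0.229).

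Among the 3p arms, miR-181a-1-3p was at 13.7 CPM in M1N, 8.93 in M2N, 9.14 in TN1 and 6.95 in TN2, and at 7.56 in M1W, 9.21 in M2W, 6.91 in M3W and 6.84 in M5W. M1N was the highest and the other 7 mice overlapped. miR-181c-3p was at 11.7 CPM in M1N, 12.4 in M2N, 5.67 in TN1 and 5.09 in TN2, and at 5.59 in M1W, 9.65 in M2W, 5.99 in M3W and 3.42 in M5W. M1N and M2N were the highest and M5W the lowest. The log2 fold changes were -0.36 (SE 0.26, edgeR adjusted p = 0.506) for miR-181a-1-3p and -0.55 (SE 0.36, edgeR adjusted p = 0.458) for miR-181c-3p, with an exact permutation p of 0.286 for each. The remaining arms failed the filter on low counts (exact permutation p = 0.771 for miR-181a-2-3p and 0.486 for miR-181b-1-3p). miR-181a-2-3p had 6, 2, 2 and 1 reads in M1N, M2N, TN1 and TN2 and 3, 5, 1 and 2 in M1W, M2W, M3W and M5W. miR-181b-1-3p had between 0 and 4 reads in each mouse, so a difference with diet was not detectable at this depth.

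The calls among the members differed with the SD mice that served as controls. Against M1N and M2N, 3 of the 6 passed an adjusted p of 0.05 when the edgeR fit was repeated. miR-181a-5p was lower in WD mice (mean 346 CPM in M1N and M2N; log2 fold change -0.87, SE 0.20, adjusted p = 0.00553). miR-181c-3p was lower too (12 CPM in the pair; -1.0, SE 0.34, adjusted p = 0.0422), whereas miR-181d-5p was higher (4.45 CPM in the pair; 1.19, SE 0.34, adjusted p = 0.0184). miR-181c-5p (0.63, SE 0.23, adjusted p = 0.0593), miR-181b-5p (-0.27, SE 0.22, adjusted p = 0.392) and miR-181a-1-3p (-0.57, SE 0.31, adjusted p = 0.192) did not pass. In that comparison 20.8% of all small RNAs and 18.5% of the miRNA entries tested passed.

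Against TN1 and TN2, 0 of the 6 members passed, with 0 below an unadjusted p of 0.05, beside 0.134% of all small RNAs and 4.07% of the miRNA entries tested. The log2 fold changes were 0.03 (SE 0.16) for miR-181a-5p, 0.12 (SE 0.19) for miR-181c-5p, 0.24 (SE 0.20) for miR-181b-5p, 0.00 (SE 0.27) for miR-181d-5p, -0.11 (SE 0.31) for miR-181a-1-3p and 0.14 (SE 0.40) for miR-181c-3p, each with an edgeR adjusted p of 1.0. The means in TN1 and TN2 were 185 CPM for miR-181a-5p and 10.4 CPM for miR-181d-5p, beside 189 and 10.2 CPM in WD mice. For 4 of the 6 members M1N and M2N lay apart from all 6 other mice, above them for miR-181a-5p and miR-181c-3p and below them for miR-181c-5p and miR-181d-5p. Of all miRNA entries tested, 30.6% set M1N and M2N apart in this way. The plot of fold changes by control mice shows both contrasts. Whether the contrasts against the pairs differ was not tested. The pairs also differed in the libraries as a whole, as given above, and the part of this in the members' values was not tested.

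**Figure D2:**
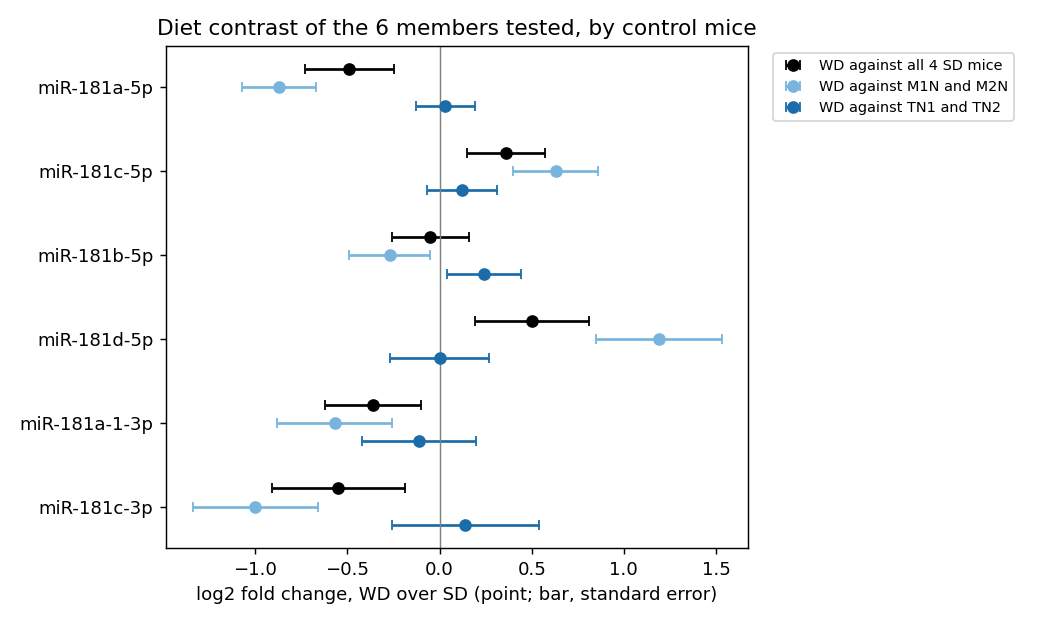
Log2 fold change of WD over SD mice (horizontal axis, points with standard errors) for the 6 members tested, against all 4 SD mice (black), M1N and M2N (light blue) and TN1 and TN2 (dark blue). The light blue points run from -1.0 to 1.19, and the dark blue points lie between -0.11 and 0.24.

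Since the 4 members of the 5p arm share a seed, their relative shares show which of them supplied it. miR-181a-5p made up 85.9% of 5p reads in M1N, 80.0% in M2N, 72.1% in TN1 and 71.3% in TN2, and 67.9% in M1W, 74.9% in M2W, 69.0% in M3W and 67.4% in M5W. miR-181c-5p made up 4.04% in M1N and 8.64% in M2N, beside 14.7% in TN1 and 12.2% in TN2 and 10.9% to 17.4% in WD mice. miR-181d-5p made up 0.836% in M1N and 1.42% in M2N, and 3.07% to 4.64% in the other 6 mice. The members from chromosome 8 thus had their smallest shares in M1N and M2N. miR-181b-5p ranged from 9.20% in M1N to 14.8% in M1W with both diets mixed. For all 4 members the shares of SD and WD mice overlapped.

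**Figure D3:**
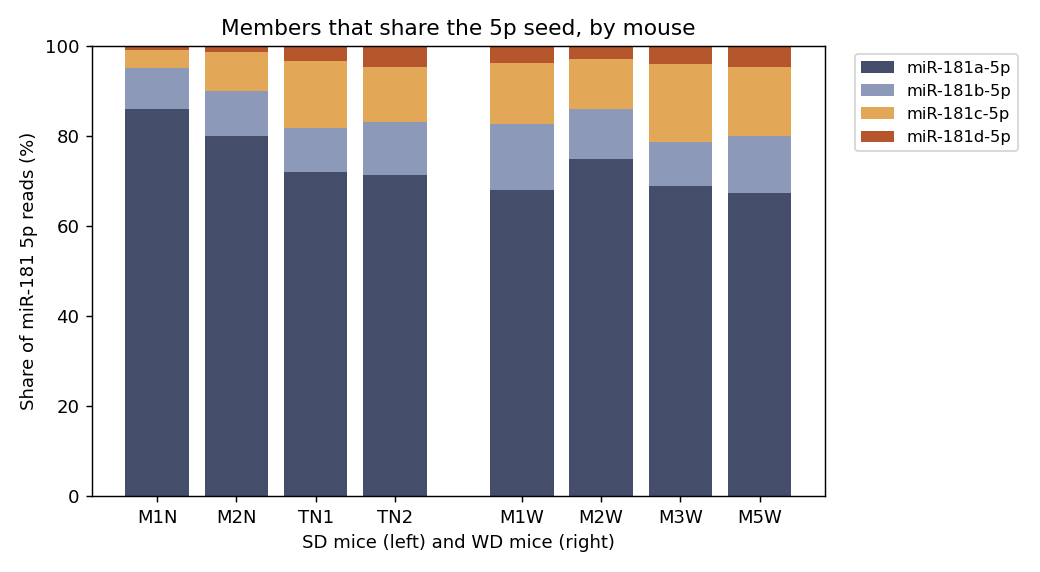
Share of the reads of the miR-181 5p arms (vertical axis, percent) that fell on each member, stacked to 100% for each mouse (horizontal axis, SD mice on the left and WD mice on the right). miR-181a-5p takes the largest share in every mouse, from 67.4% in M5W to 85.9% in M1N, and the upper 2 bands, miR-181c-5p and miR-181d-5p, are narrowest in M1N and M2N.

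Ratios of counts within a mouse do not depend on the scaling of libraries. Of 7 ratios tested between the diets (exact permutation test, two-sided, smallest possible p = 0.0286, Benjamini-Hochberg adjustment over the 7), none passed 0.05, and SD and WD mice overlapped in each. The retained arm exceeded the other arm for both precursor types. miR-181a-5p was read 26.8 times as often as its 3p arms together in M1N, 28.1 times in M2N, 19.5 times in TN1 and 24.1 times in TN2. In WD mice the ratio was 19.4 in M1W, 20.6 in M2W, 24.1 in M3W and 23.6 in M5W, which lay within the range of the SD mice except for M1W, just below it. On the log2 scale WD minus SD was -0.17 (exact p = 0.257, adjusted 0.44).

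By these counts the arms of Mir181c were far less unequal. miR-181c-3p lies within 2 substitutions of miR-181a-1-3p and had 11 to 39 reads per mouse. The ratio to its 5p arm is therefore uncertain, as stated above. miR-181c-5p to miR-181c-3p was 1.71 in M1N, 2.33 in M2N, 6.83 in TN1 and 6.00 in TN2, and 5.94 in M1W, 3.55 in M2W, 7.46 in M3W and 11.6 in M5W. The 5p arm led in all 8 mice, least so in M1N and M2N. On the log2 scale the means were 1.81 ± 0.97 in SD mice and 2.67 ± 0.70 in WD mice (standard deviation, n = 4), a difference of 0.86 (exact p = 0.171, adjusted 0.40), which was 1.68 against M1N and M2N and 0.03 against TN1 and TN2. For miR-181b the 3p arm listed had 2.12 reads per mouse on average, and the ratio was not tested.

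The other 5 ratios, chosen after the counts were seen, set members against each other. miR-181c-5p to miR-181a-5p, members of one seed from separate chromosomes, was 0.047 in M1N, 0.108 in M2N, 0.203 in TN1 and 0.171 in TN2, and 0.200 in M1W, 0.146 in M2W, 0.252 in M3W and 0.226 in M5W. M1N and M2N were the lowest, and the log2 difference of WD minus SD was 0.81 (exact p = 0.171, adjusted 0.40), with 1.5 against M1N and M2N and 0.11 against TN1 and TN2. miR-181d-5p to miR-181b-5p, sequences that differ by C12U over 23 bases, was 0.0909 in M1N, 0.143 in M2N, 0.354 in TN1 and 0.391 in TN2, and 0.245 to 0.407 in WD mice. Its log2 difference was 0.61 (exact p = 0.314, adjusted 0.44), with 1.44 against M1N and M2N and -0.23 against TN1 and TN2. miR-181b-5p to miR-181a-5p, whose precursors lie side by side, differed by 0.38 (exact p = 0.114, adjusted 0.40). miR-181d-5p to miR-181c-5p, from neighbouring precursors on chromosome 8, differed by 0.18 (exact p = 0.543; 0.02 without M2N and 0.41 without TN2) and miR-181c-3p to miR-181a-1-3p by -0.17 (exact p = 0.714).

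**Figure D4:**
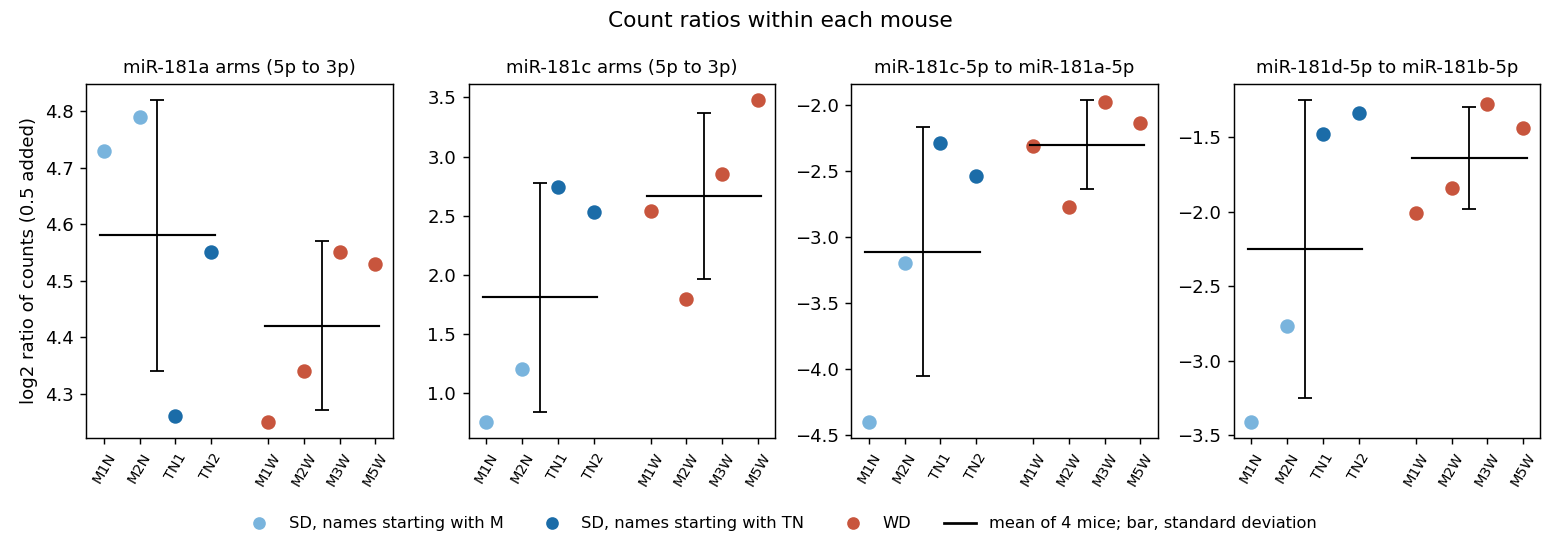
Log2 ratio of counts, with 0.5 added to each count (vertical axes, which differ between panels and do not start at 0), in each mouse (horizontal axes) for both arm ratios and a pair of ratios between 5p members. Lines are means of 4 mice and bars standard deviations. In the last 3 panels M1N and M2N lie below the other 6 mice, and TN1 and TN2 lie within the range of the WD mice.

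The 3p arms tell the loci of miR-181a apart. Of its 3p reads, 89.8% pooled over all mice were miR-181a-1-3p, from chromosome 1, and the rest miR-181a-2-3p, from chromosome 2. The share was 87.0% in M1N (40 of 46 reads), 93.3% in M2N, 93.5% in TN1 and 93.8% in TN2, and 88.5% in M1W, 80.8% in M2W (21 of 26 reads, Wilson 95% interval 62.1% to 91.5%), 93.8% in M3W and 91.7% in M5W. The intervals cover counting error only. Means were 91.9% ± 3.30 in SD mice and 88.7% ± 5.69 in WD mice (standard deviation, n = 4), a difference of -3.24 percentage points within the spread (exact permutation test, two-sided, p = 0.4). Single mice moved this difference, to -0.604 without M2W, -4.88 without M1N and -4.93 without M3W. These are shares of 3p reads, and since the arms differ in sequence, they need not equal the shares of the loci in miR-181a-5p. Both 3p arms also lie within 2 substitutions of each other, so the split of their reads is uncertain as stated above.

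Some members varied together across all mice, and others only where M1N and M2N were included. With the level of miR-181a-5p over 8 mice, Pearson's r on log2 CPM was 0.93 for miR-181a-1-3p, 0.82 for miR-181c-3p and 0.70 for miR-181b-5p, and -0.85 for miR-181c-5p and -0.88 for miR-181d-5p. Without M1N and M2N, over 6 mice, these were 0.74, 0.77, 0.15, -0.12 and -0.18. The points share their libraries and scaling, so the values are descriptions without a test. Over all 8 mice both 3p arms thus ran with miR-181a-5p, and the 5p members from chromosome 8 against it. Without M1N and M2N, both 3p arms still ran with each other (r = 0.75 over 8 mice and 0.69 over 6) and against miR-181d-5p (-0.82 and -0.66 for miR-181a-1-3p, -0.85 and -0.61 for miR-181c-3p), and miR-181c-5p against miR-181b-5p (-0.82 and -0.58). The 5p and 3p arms of Mir181c ran against each other (r = -0.66, and -0.20 without M1N and M2N). Since miR-181c-3p and miR-181a-1-3p lie within 2 substitutions of each other, the correlations of both are uncertain to that extent. The share of G and C was 59.1% in miR-181c-3p, 50% in miR-181a-1-3p, 47.8% in miR-181a-5p, 45.8% in miR-181b-5p, 45.5% in miR-181c-5p and 43.5% in miR-181d-5p. The log2 ratio of M1N and M2N to TN1 and TN2 was 1.09, 0.47, 0.90, 0.50, -0.50 and -1.13 in the same order. The 2 members lower in M1N and M2N had the lowest shares of G and C. However, miR-181c-5p at 45.5% and miR-181b-5p at 45.8% hardly differed in this share, and the ratios of the remaining members did not follow its order. The part of base composition in these values was not tested. A check over all mature miRNAs tested was not made, and a sequence was matched for 286 of 366 of them (78.1%).

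Among 206 other mature miRNAs with a mean count of at least 50, those whose log2 CPM was most like that of miR-181a-5p over the 8 mice were miR-484 (r = 0.973), miR-204-5p (0.971), miR-340-3p (0.969), miR-191-5p (0.950) and miR-547-3p (0.945). Over the 6 mice without M1N and M2N these values were 0.732, 0.901, 0.951, 0.805 and 0.880. All 5 had their highest mean in M1N and M2N, as for miR-204-5p with 506 CPM beside 265 in TN1 and TN2 and 276 ± 72.4 in WD mice (standard deviation, n = 4). The least alike were miR-471-5p (-0.912), miR-148b-3p (-0.903) and miR-30c-5p (-0.899), and without M1N and M2N these were -0.119, -0.122 and 0.381. Likeness was common in these libraries. The median r of the 206 was 0.474, and 47 of them reached 0.8 or more.

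A general list of haematopoietic and lymphoid miRNAs, not one of thymocytes, was looked at. All 7 haematopoietic and lymphoid miRNAs looked for were listed and tested, with 0 of 7 at an adjusted p under 0.05 against the 4 SD mice, and a median log2 fold change of 0.26 beside 0.03 for all miRNA entries. By the criteria of the study miR-142-3p (0.60) and miR-146a-5p (0.87) were higher and miR-150-5p (-0.64) lower, 3 of 7 beside the 15.1% of miRNA entries that met them. The most abundant was miR-342-3p, whose mean was 840 CPM for M1N and M2N, 447 for TN1 and TN2 and 538 ± 193 in WD mice (standard deviation, n = 4). Summed over the list, the level was 1140 to 1470 CPM in M1N and M2N, 653 to 723 in TN1 and TN2 and 618 to 1280 in WD mice, with no member of the list at 0 on average. The sum was carried mainly by miR-342-3p. Of the 7 markers, miR-150-5p, miR-142-5p, miR-223-3p and miR-342-3p had a higher mean in M1N and M2N than in TN1 and TN2, as miR-181a-5p had (346 and 185 CPM), and miR-142-3p, miR-155-5p and miR-146a-5p a lower one. Against M1N and M2N the median log2 fold change of the list was 0.14. Against M1N and M2N, miR-150-5p, found in mature lymphocytes (-1.15, adjusted p = 0.00622), and miR-223-3p, found in myeloid cells (-1.0, adjusted p = 0.0183), were lower in WD mice by the edgeR test, and miR-142-3p was higher (0.95, adjusted p = 0.0262), 3 of 7 beside 18.5% of miRNA entries. Against TN1 and TN2 none of the 7 passed (adjusted p of 1.0 for each). The part of blood or lymphoid cells in the level of miR-181a-5p was not tested.

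Other cell types showed a mixed picture. The endothelial miRNAs, led by miR-126-3p, summed to 2060 to 2100 CPM in M1N and M2N, 1320 to 1410 in TN1 and TN2 and 1250 to 2440 in WD mice, and those of smooth muscle and stroma, led by miR-145-5p, to 4930 to 5070, 3630 to 4030 and 3790 to 6930. Both sums were higher in M1N and M2N than in TN1 and TN2, as miR-181a-5p was, and that of smooth muscle and stroma was carried by miR-145-5p (4000 CPM for the former pair and 2870 for the latter), while miR-143-3p of the same list ran the other way (231 and 379 CPM). The sum of the erythroid miRNAs, led by miR-451, went the other way with 40.2 to 71.6, 116 to 151 and 76.5 to 138 CPM. It was carried by miR-451 (50.2 CPM in M1N and M2N and 125 in TN1 and TN2). Of the others, at a few CPM, miR-144-3p went with miR-451 (2.19 and 6.62 CPM) and miR-144-5p against it (3.53 and 1.80 CPM). Of the germ cell list 3 of 6 tested members, miR-34b-3p (-0.77, adjusted p = 0.00533), miR-34c-3p (-0.80, adjusted p = 0.00628) and miR-449a-5p (-1.02, adjusted p = 0.00171), were lower in WD mice than in M1N and M2N by the edgeR test and 1, miR-449c-5p (0.64, adjusted p = 0.028), was higher, beside the 18.5% of miRNA entries that passed in this comparison. The most abundant members of that list, miR-34c-5p (0.04) and miR-34b-5p (-0.03), did not pass. In the same comparison miR-451 (0.91, adjusted p = 0.0178), miR-143-3p (0.87, adjusted p = 0.0219) and miR-471-5p (1.34, adjusted p = 0.000895) were higher in WD mice by the edgeR test, and miR-871-3p of the X-linked list (-0.77, adjusted p = 0.00682) and miR-202-3p of the gonadal list (-0.73, adjusted p = 0.0203) lower. The higher ones were 1 of 3 listed erythroid, 1 of 6 smooth muscle and stroma and 1 of 9 X-linked miRNAs. The lower ones were 1 of 9 X-linked and 1 of 2 gonadal miRNAs, beside the same 18.5%. The median of the X-linked list was 0.06, and the gonadal leader miR-202-5p (0.42) did not pass. By the criteria against all 4 SD mice, miR-449a-5p (-0.62) was lower and, of the X-linked testis list led by miR-880-3p (1700 CPM ± 238 in WD mice, standard deviation, n = 4), miR-471-5p (0.80) higher. These were 1 of 6 germ cell and 1 of 9 X-linked miRNAs tested, beside the 15.1% of miRNA entries that met the criteria. The X-linked list summed to 4590 to 5350, 4010 to 4470 and 4100 to 5310 CPM, and the gonadal list, led by miR-202-5p, to 3610 to 4080, 4030 to 4190 and 4190 to 7020 CPM. Median log2 fold changes of WD against the 4 SD mice were -0.06 over 2 endothelial, 0.12 over 6 smooth muscle and stroma, -0.10 over 2 erythroid, -0.26 over 6 germ cell, 0.15 over 9 X-linked and 0.00 over 2 gonadal miRNAs tested. None of the lists had a member with an adjusted p under 0.05 against the 4 SD mice or against TN1 and TN2. The part of these cell types in the members' values was not tested.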

How the data were processed

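Small RNA from the testes of 8 mice was sequenced on a SOLiD instrument. The authors removed adaptors (reads without one were cut to 31 bases), used Bowtie to place reads on mm9 with up to 2 mismatches, named small RNAs by miRBase release 18, Rfam and a non-coding RNA database, and deposited raw read counts per small RNA and mouse. Diets were taken from the sample labels. The members and lists were chosen with earlier results of these data known.

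These counts were fitted in edgeR 4.0.16 (R 4.3.3), with TMM factors, filterByExpr (minimum count 10, minimum total 15), the older quasi-likelihood method, diet as the only term, and Benjamini-Hochberg adjustment over all 16955 small RNAs tested. Standard errors come from the F statistic. Permutation tests were exact, over the 70 assignments of 8 mice. Likeness and order used log2(CPM + 0.5). DESeq2 1.42.0, limma 3.58.1 (voom), other scalings, filters and thresholds, each SD pair, a block and each mouse left out were alternatives. The procedure was tested on simulated data. The named miRNAs, beside the members, were the 5 most and 3 least like miR-181a-5p, the neighbours in level of 5p members and the leader of each marker list, and marker miRNAs that passed a test or the criteria were named after their values were seen. At 2064562 to 3253798 counts per mouse, members under about 10 reads carry a large counting error. P-values measure the spread between these mice only.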

Additional observations from a re-analysis of the deposited data

Results flagged for a closer look

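In groups of 4 mice, a value was picked out when its gap to the nearest other mouse took up more of the range of the group than Dixon's critical value allows. Of 30 groups examined 2 met this, where chance gives about 1.5. miR-181a-5p was at 235 CPM in M2W, and at 166 to 177 CPM in the other WD mice, a gap of 0.831 of the range. The miRNA class as a whole also took its largest part of a WD library in M2W, with 290750 of 2290920 counts. As a share of the miRNA counts, miR-181a-5p in M2W lay within the range of the other WD mice. The share of miR-181a 3p reads on miR-181a-1-3p was 87.0% in M1N and 93.3% to 93.8% in the other SD mice, a gap of 0.939 of the range, and its Wilson 95% interval, 74.3% to 93.9%, covered the other values.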

How the results depend on the processing

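Of 120 recomputed log2 fold changes of members, 111 kept their direction and their side of an adjusted p of 0.05. With M1N and M2N alone as controls, 3 members had an adjusted p under 0.05 (miR-181a-5p, -0.87; miR-181d-5p, 1.19; miR-181c-3p, -1.0), and the count was 0 under every other alternative run, including the replicate block over M1N, M2N, M1W and M2W. The count by p of 0.1 or less and 1.5-fold, 0 with all mice, was 1 with limma-voom, 1 with no fold threshold, 4 with M1N and M2N alone, 3 with the replicate block and 3 with the same 4 mice without it, and between 0 and 3 with a mouse left out (3 without TN1, 3 without TN2, 2 without M2W). The count over all miRNA entries tested, 63 of 418 with all mice, was 56 with limma-voom and 122 with no fold threshold, and rose to 154 of 453 with M1N and M2N alone, 122 of 437 with the block, 123 of 437 without it, 91 of 427 without TN1, 92 of 440 without TN2 and 100 of 436 without M2W. The mice that share a number are different animals. Over 418 miRNA entries the difference of M1N and M2N had r = -0.043 with that of M1W and M2W. This value rests on 4 mice, and it cannot decide whether mice with the same number share an origin. With TN1 and TN2 alone as controls the sign turned for miR-181a-5p (0.03), miR-181b-5p (0.24) and miR-181c-3p (0.14), and for the log2 ratios of the miR-181a arms (0.01), miR-181d-5p to miR-181b-5p (-0.23), miR-181d-5p to miR-181c-5p (-0.15) and miR-181c-3p to miR-181a-1-3p (0.17). miR-181b-5p also turned on column totals (0.02), and ranged from -0.16 to 0.13 with a mouse left out (0.13 without M1N, 0.05 without M3W). miR-181c-3p to miR-181a-1-3p ranged from -0.32 to 0.06 (0.06 without M2N, 0.03 without M5W). The difference in the share of miR-181a-1-3p ranged from -4.93 to -0.604 percentage points. Without M1N alone, miR-181c-5p moved from 0.36 to 0.21, miR-181d-5p from 0.50 to 0.30, miR-181a-1-3p from -0.36 to -0.15, the miR-181c arms from 0.86 to 0.51, miR-181c-5p to miR-181a-5p from 0.81 to 0.38 and miR-181d-5p to miR-181b-5p from 0.61 to 0.22. Other mice left out also moved values by over 1.5 times. miR-181d-5p was 0.33 without M2N and 0.76 without TN2. miR-181c-3p, -0.55 with all mice, was -0.33 without M2N, -0.32 without M5W and -0.84 without M2W. The miR-181a arms, at -0.17, were at -0.10 without M2N, -0.11 without M1W and -0.27 without TN1. miR-181d-5p to miR-181c-5p, at 0.18, was at 0.02 without M2N and 0.41 without TN2, and miR-181c-3p to miR-181a-1-3p, at -0.17, was at -0.32 without TN1 and -0.31 without M2W. The cause of these changes was not tested. The rank of miR-181a-5p ranged from 73 to 80 with a mouse left out, and depth limited miR-181a-2-3p and miR-181b-1-3p to a few reads per mouse.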
